A study of Mus musculus with 23 samples.

Results

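The genes described here are 37 genes of the cell cycle and of DNA replication, chosen by symbol from the 47643 genes measured in the series. A total of 21 act mainly in G2 and mitosis and 16 mainly at the G1/S boundary and in S phase. They were followed in 23 RNA-seq libraries of B16F10, a mouse melanoma line. All 37 passed the filter of a mean of at least 1 TPM (a transcript level scaled for transcript length and for the total of the library) in every comparison.

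The study asked what the orphan nuclear receptor NR2F6 does inside melanoma cells. Cells labelled NR2F6 KO carried the guide sg492 or sg495, delivered as guide RNA with Cas9 protein and followed by sorting of transfected cells, and controls were labelled WT. Each of 3 sample types (cultured cells, bulk tumors, and tumor cells isolated from tumors on magnetic columns) comprised 6 libraries, 2 for control, 2 for sg492 and 2 for sg495. Tumors were grown under the skin of male C57BL/6 mice of 6 to 8 weeks, and the sorted cells went through collagenase digestion and depletion of stromal cells before RNA was taken. The methods do not describe the edited cells as single clones. A further 5 libraries are labelled B16F10, WT, with IgG (2) or anti-PD1 (3), an antibody against an immune checkpoint receptor, and their labels name no sample type. The labels do not say whether libraries of a group came from separate animals or cultures, so the p-values below measure the spread between these libraries, which may be technical. Per the labels a library had 23 to 31 M reads, but TPM keep no read counts, so the depth behind a single value is unknown.

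A dividing cell copies its DNA in S phase and parts the copies in mitosis, and most genes needed for either step are transcribed in waves. E2F factors switch on the G1/S genes, which load and fire the replicative helicase and make deoxynucleotides. The MuvB complex, with B-MYB and FOXM1, switches on the G2/M genes, many through a promoter element called CHR next to boxes bound by NF-Y. The RNA of these genes is therefore widely read as a sign of how many cells are cycling. In a mixed RNA sample, fewer cycling cells and less of the RNA per cell cannot be told apart.

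In the 3 labelled sample types, melanocyte markers (8 genes) summed to between 15286 and 18198 TPM in all 18 libraries. Leukocyte markers (12 genes) summed to 2.22 to 6.49 TPM in cultured, 4.15 to 12.9 in sorted and 308 to 658 in bulk libraries. The IgG and anti-PD1 libraries stood apart, with leukocyte sums of 4987 to 7661 TPM and melanocyte sums of 1700 to 5194 TPM, and they are therefore treated on their own. Nr2f6 itself was at 17.7 to 32.9 TPM in the 6 control libraries, and each sg495 library was below both controls of its type. The sg492 libraries of bulk tumors and cultured cells were below their controls as well, at 22.3 to 31.5 TPM. In sorted cells the libraries labelled sg492 held 19.8 and 25.7 TPM against 20.3 and 17.7 in controls, so that label is not borne out by the RNA level there, although a short insertion or deletion need not lower it.

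The 37 genes were highest in cultured cells, intermediate in bulk tumors and lowest in sorted tumor cells. Their summed level was 6070 to 6574 TPM over the 6 cultured libraries, 4036 to 4405 TPM in bulk tumors and 3118 to 3763 TPM in sorted cells, with no overlap between the sample types. By the median of 6 libraries, 33 of 37 genes followed this order, as did 27.1% of all genes, and for 21 of them no library of one type overlapped with another. Of all 13152 genes tested, 2.74% showed that order without overlap. The exceptions by median were Ccnb2, Bub1, Mcm2 and Mcm7, which were higher in sorted cells than in bulk tumors, and for none of these was the separation complete.

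**Figure D1:**
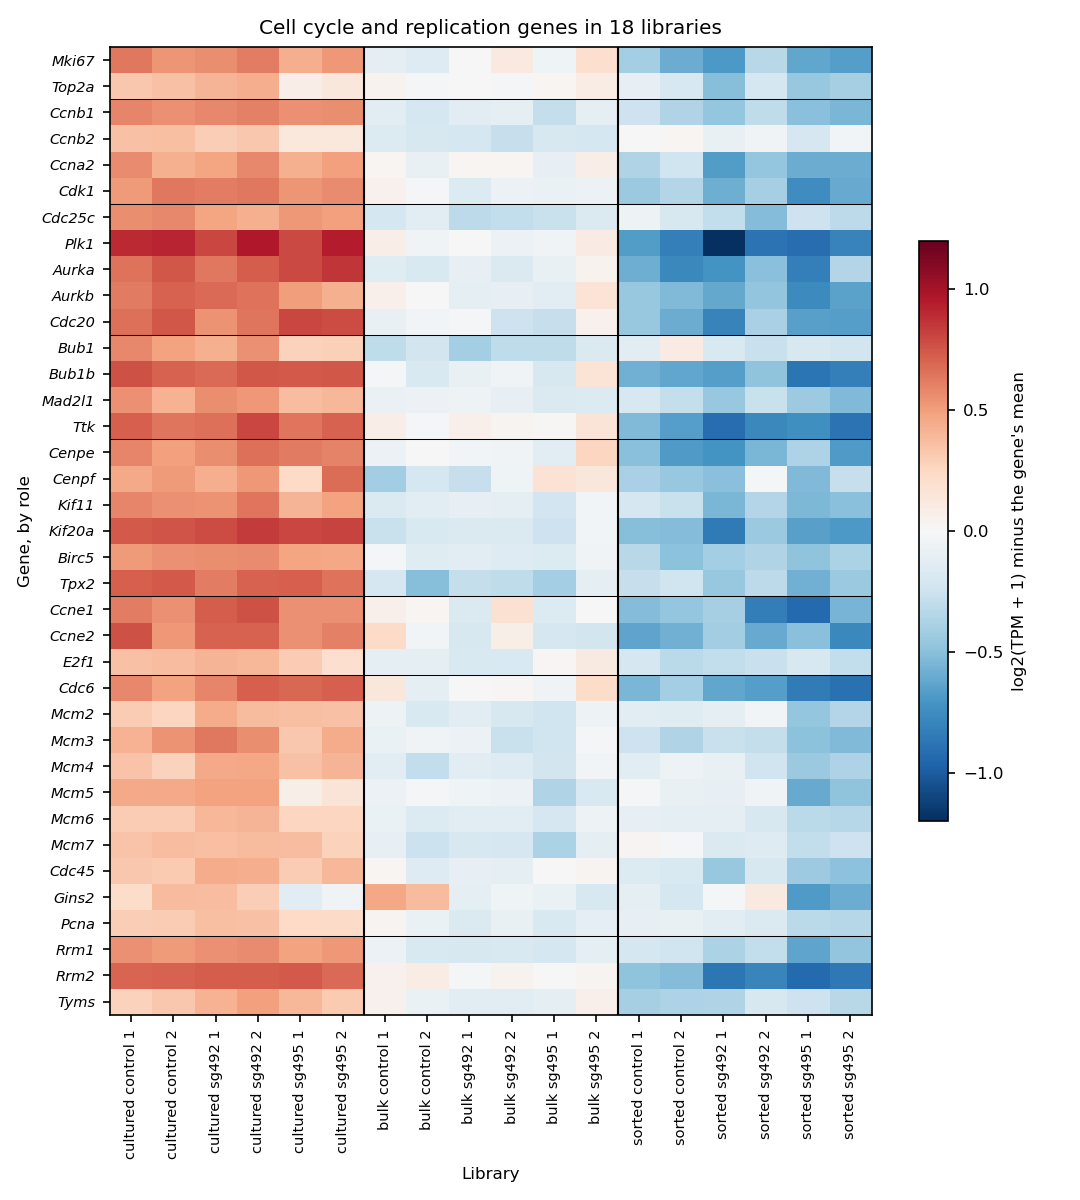
Level of each of the 37 genes (rows, grouped by role) in the 18 libraries of the 3 sample types (columns), as log2(TPM + 1) minus the mean of the gene, with red above and blue below that mean. For 35 of 37 genes every cultured library is above every bulk library (15.8% of all genes), and for 22 genes every sorted library is below every bulk library (14.2% of all genes).

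Compared with cultured cells, 29 of 37 genes were lower in sorted tumor cells at an adjusted p below 0.05 and at least 1.5-fold, and none was higher. Of all genes tested, 8.99% were lower by the same rule. The median log2 difference of the 37 was -0.93, against -0.002 for all genes, and it was -1.07 for the 21 G2/M genes and -0.65 for the 16 G1/S and S phase genes. All 37 had an adjusted p below 0.05 with the lower value in sorted cells, as did 34.8% of all genes. These p-values are from limma on log2(TPM + 1), 2-sided, adjusted by the Benjamini-Hochberg method over all genes tested. The sorted libraries also held 1047 to 2053 TPM of 10 dissociation and stress genes (Fos, Egr1 and others), against 92.5 to 129 TPM in cultured cells, and their part in the result was not tested.

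All 5 genes of mitotic entry and exit fell, with a median log2 difference of -1.29. Plk1, a kinase that drives mitotic entry and spindle assembly, ranged from 135.0 to 151 TPM in cultured cells (median 146), from 73.7 to 83.1 in bulk tumors (median 76.0) and from 32.7 to 48.2 in sorted cells (median 42.4). It was 3.41-fold lower in sorted than in cultured cells (log2 -1.77, SE 0.06, adjusted p = 1.57e-10), the largest fall of the 37. The kinases Aurka, which builds spindle poles, and Aurkb, which corrects attachments at the kinetochore, fell by 1.36 and 1.18 on the log2 scale. Cdc20, the activator of the anaphase-promoting complex, fell by 1.29. Cdc25c, the phosphatase that removes the brake on Cdk1, fell by 0.78, from 34.4 to 38.4 TPM in cultured cells to 17.4 to 24.3 TPM in sorted cells.

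The promoters of members from each wave are shown with matches to the elements named above. RefSeq promoters (GRCm38.p6, 250 bases before to 50 after a start site) matched 29 of the 37 genes, with 30 promoters since Mcm7 has 2. Capitals mark 3 kinds of motif searched on both strands, namely CHR (TTTGAA), the NF-Y box (CCAAT) and E2F sites (TTTGGCGC, TTTCGCGC, TTTCCCGC or TTTGCCGC). Plk1 lies on the plus strand of chromosome 7 (promoter chr7:122159185-122159484), Ccnb2 on the minus strand of chromosome 9 (chr9:70421505-70421804), Mcm5 on the plus strand of chromosome 8 (chr8:75109259-75109558) and Rrm2 on the plus strand of chromosome 12 (chr12:24708004-24708303).
Plk1: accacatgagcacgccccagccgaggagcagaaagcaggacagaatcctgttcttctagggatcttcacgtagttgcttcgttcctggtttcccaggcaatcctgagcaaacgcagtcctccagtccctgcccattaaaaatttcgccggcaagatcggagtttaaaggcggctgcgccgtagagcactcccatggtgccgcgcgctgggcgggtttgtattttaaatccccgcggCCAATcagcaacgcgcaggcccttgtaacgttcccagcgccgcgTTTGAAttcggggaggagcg
Ccnb2: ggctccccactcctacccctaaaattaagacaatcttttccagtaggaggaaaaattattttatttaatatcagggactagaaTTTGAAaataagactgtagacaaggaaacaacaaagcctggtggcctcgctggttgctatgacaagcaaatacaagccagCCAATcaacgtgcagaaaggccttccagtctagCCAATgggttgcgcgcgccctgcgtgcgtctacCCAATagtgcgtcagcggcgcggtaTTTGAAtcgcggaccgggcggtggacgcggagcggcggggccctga
Mcm5: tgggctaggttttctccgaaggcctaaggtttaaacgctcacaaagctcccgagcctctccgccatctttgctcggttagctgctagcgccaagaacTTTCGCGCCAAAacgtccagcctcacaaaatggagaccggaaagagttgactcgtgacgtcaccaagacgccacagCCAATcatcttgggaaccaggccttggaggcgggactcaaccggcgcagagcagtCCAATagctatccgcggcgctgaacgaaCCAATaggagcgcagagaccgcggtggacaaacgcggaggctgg
Rrm2: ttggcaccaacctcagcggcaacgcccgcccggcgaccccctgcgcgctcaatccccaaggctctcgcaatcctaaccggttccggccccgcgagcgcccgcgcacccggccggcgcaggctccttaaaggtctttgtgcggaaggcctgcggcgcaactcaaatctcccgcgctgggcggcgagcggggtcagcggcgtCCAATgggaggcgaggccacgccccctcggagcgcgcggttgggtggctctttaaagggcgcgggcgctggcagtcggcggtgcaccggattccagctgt

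CHR was found in 11 of 16 G2/M promoters and in 2 of 14 G1/S and S phase promoters, against 17.9% of all 32851 promoters in the reference. CCAAT was found in 14 of 16 and 10 of 14 promoters, against 37.4% of all. An E2F site was found in 1 of 16 and 5 of 14 promoters, against 2.26% of all. In Mcm5 the 2 E2F matches lie on opposite strands and overlap. Rrm2 has a CCAAT match but no CHR or E2F match in this window. Both Plk1, the gene with the largest fall in sorted cells, and Ccnb2, the one with the smallest, hold CHR and CCAAT in this window. Aurkb, Ccna2, Ccne2, Cdc25c, Gins2, Kif20a, Mcm4 and Tpx2 had no promoter in the reference and are not in these counts.

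Among the mitotic cyclins, Ccnb1 and Ccnb2 differed in size of change. Ccnb1, cyclin B1 and the main partner of Cdk1 in mitosis, was at 224 to 233 TPM in cultured cells and 104 to 129 TPM in sorted cells (log2 -0.97, SE 0.04, adjusted p = 6.02e-10). Ccnb2, cyclin B2, was at 119 to 141 TPM in cultured and 94.9 to 111 TPM in sorted cells. That is a log2 difference of -0.32 (SE 0.03), below the 1.5-fold rule, and its 95% interval of -0.39 to -0.25 lies apart from the interval of -1.06 to -0.89 for Ccnb1. Ccna2, cyclin A2 of S phase and G2, fell by 0.98. Cdk1, the kinase they activate, was at 391 to 428 TPM in cultured and 164 to 215 TPM in sorted cells, and fell by 1.10.

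Of the 4 spindle checkpoint genes, 3 fell and Bub1 missed the 1.5-fold rule. Ttk and Bub1b, checkpoint kinase and pseudokinase, fell by 1.45 and 1.40 on the log2 scale. Bub1b was at 87.0 to 91.8 TPM in cultured, 47.0 to 60.4 TPM in bulk and 28.9 to 38.2 TPM in sorted libraries. Mad2l1, which blocks Cdc20 until chromosomes are attached, fell by 0.83. Bub1, the kinase that recruits the other checkpoint proteins, was at 99.0 to 122 TPM in cultured and 67.8 to 87.5 TPM in sorted cells, a log2 difference of -0.58 (95% interval -0.68 to -0.48) just under the 1.5-fold rule.

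All 6 kinetochore, spindle and cytokinesis genes fell, by 0.83 to 1.40. Kif20a, a kinesin of the central spindle, fell by 1.40 from 80.4 to 86.0 TPM in cultured cells to 26.0 to 34.8 TPM in sorted cells. Cenpe, a kinetochore motor, fell by 1.17 and Tpx2, a spindle assembly factor, by 1.07. Kif11, the kinesin that pushes spindle poles apart, fell by 0.94 and Birc5, survivin of the chromosomal passenger complex, by 0.93. Cenpf, a large kinetochore protein, fell by 0.83 and had the largest standard error of the 37 (0.09). Mki67, the proliferation antigen Ki-67, was at 111 to 128 TPM in cultured and 50.3 to 64.8 TPM in sorted cells, and fell by 1.10. Top2a, which untangles sister DNA, fell by 0.60, and was not called with control libraries alone (log2 -0.48).

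Of the G1/S genes, the E cyclins fell more than the MCM helicase subunits. Ccne1 and Ccne2, which activate Cdk2 at the start of S phase, fell by 1.24 and 1.23. Ccne1 was at 60.8 to 70.8 TPM in cultured, 36.6 to 47.1 TPM in bulk and 21.1 to 31.0 TPM in sorted libraries. E2f1, a factor that drives G1/S transcription, fell by 0.60, from 36.8 to 42.8 TPM to 25.4 to 27.8 TPM.

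All 10 genes of origin licensing, helicase and clamp had a lower value in sorted cells (log2 -1.29 to -0.43), and 4 of them passed the 1.5-fold rule. Cdc6, which loads the MCM helicase onto origins, was at 36.0 to 42.6 TPM in cultured, 23.4 to 29.8 TPM in bulk and 13.3 to 19.0 TPM in sorted libraries. It was 2.45-fold lower in sorted than in cultured cells (log2 -1.29, SE 0.06, adjusted p = 1.94e-09). The helicase subunits were closer together: Mcm3 fell by 0.85 and Mcm4 by 0.61, while Mcm5 differed by -0.57, Mcm2 by -0.56, Mcm6 by -0.52 and Mcm7 by -0.49. Cdc45, which joins the helicase when it fires, fell by 0.69, but Mcm4 and Cdc45 were not called with control libraries alone (log2 -0.41 and -0.50). Pcna, the sliding clamp, was at 589 to 644 TPM in cultured and 395 to 473 TPM in sorted libraries, a log2 difference of -0.49. Gins2, a further helicase subunit, differed by -0.43 and was the one gene whose cultured and sorted libraries overlapped (36.4 to 52.5 against 24.8 to 43.5 TPM).

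All 3 genes of nucleotide supply fell. Rrm2, the small subunit of ribonucleotide reductase that is limiting for deoxynucleotides, was at 646 to 668 TPM in cultured cells (median 660), 395 to 426 TPM in bulk tumors (median 412) and 210 to 287 TPM in sorted cells (median 226). It was 2.74-fold lower in sorted than in cultured cells (log2 -1.46, SE 0.03, adjusted p = 1.68e-12). Its partner Rrm1, the large subunit, fell by 0.90 and Tyms, thymidylate synthase, by 0.69. In cultured cells Rrm2 was the highest of the 37 in TPM, just above Pcna, with 646 TPM in its lowest library against 644 TPM in the highest library for Pcna.

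**Figure D2:**
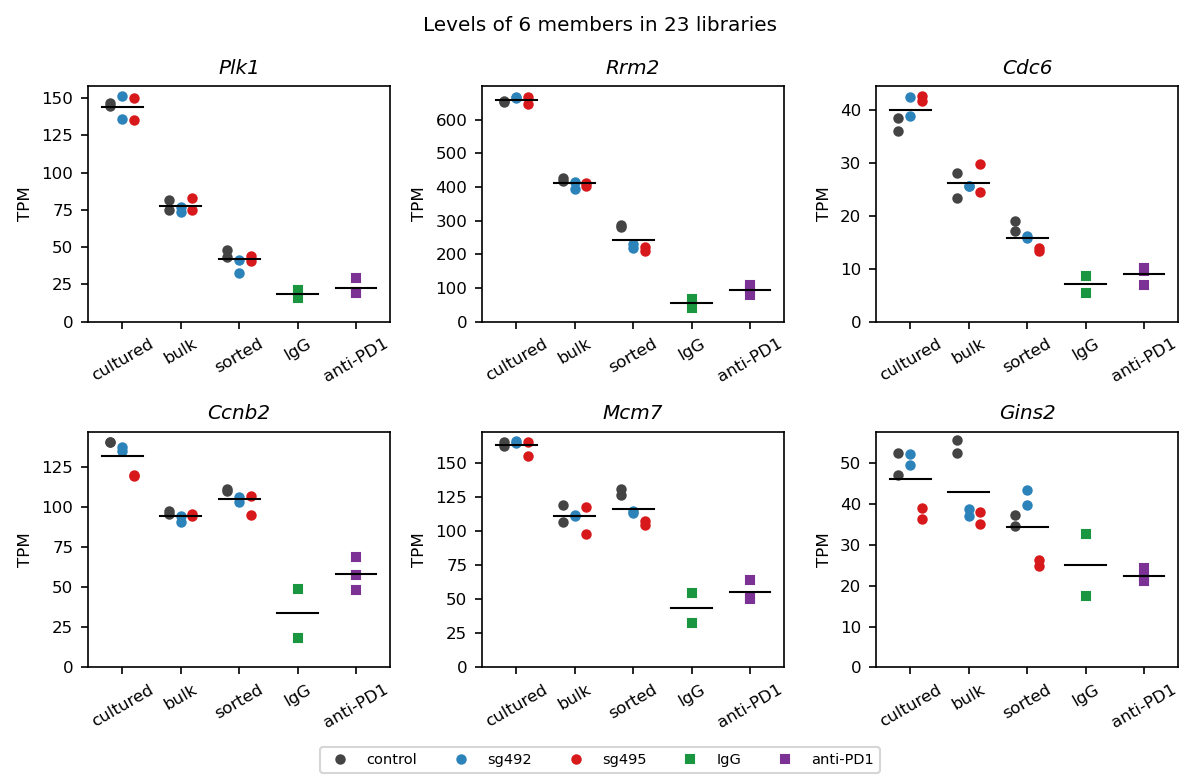
TPM of 6 members in each of the 23 libraries, by sample type or antibody label on the horizontal axis, with guides in color and the mean of a column as a line. Plk1, Rrm2 and Cdc6 step down from cultured cells to bulk tumors to sorted cells, while Ccnb2 and Mcm7 have higher means in sorted cells than in bulk tumors and Gins2 overlaps.

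Bulk tumors were compared with cultured cells next. A total of 21 of 37 genes were lower in bulk tumors and none was higher, against 3.95% of all genes lower. All 37 had an adjusted p below 0.05 with the lower value in bulk tumors, against 28.2% of all genes. The median log2 difference was -0.61, and the largest falls were those of Tpx2 (-0.99), Kif20a (-0.97), Plk1 (-0.88) and Aurka (-0.84). The smallest differences were those of Gins2 (-0.11) and Top2a (-0.27), and for these the libraries of the sample types overlapped. For the other 35 genes all bulk libraries lay below all cultured libraries, as for 15.8% of all genes. Leaving out 1 library at a time gave 17 (without bulk sg495 replicate 1) to 23 genes (without bulk sg495 replicate 2).

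Sorted cells were compared with bulk tumors as well. In bulk tumors 6 of 37 genes were higher than in sorted cells by the full rule, against 9.26% of all genes: Plk1 (log2 0.89, SE 0.06), Ttk (0.80, SE 0.05), Rrm2 (0.78, SE 0.03), Cdc6 (0.70, SE 0.06), Bub1b (0.61, SE 0.06) and Ccne1 (0.61, SE 0.09). Without the fold rule 29 genes were higher, against 31.1% of all genes, and 2 were lower (Ccnb2 at -0.15 and Bub1 at -0.14). For 22 genes all 6 sorted libraries lay below all 6 bulk libraries, as for 14.2% of all genes. Leaving out bulk sg495 replicate 2 gave 4 genes and leaving out bulk sg495 replicate 1 gave 9. With control libraries alone 3 genes were called, and Rrm2 then differed by 0.57. The bulk libraries held leukocyte, fibroblast (377 to 1053 TPM) and endothelial (65.2 to 79.6 TPM) markers. In sorted cells leukocyte markers were at 4.15 to 12.9 TPM, fibroblast markers at 4.42 to 7.0 TPM and endothelial markers at 14.0 to 32.2 TPM, and stress genes were at 153 to 231 TPM in bulk against 1047 to 2053 TPM in sorted libraries. Their part in this difference was not tested.

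**Figure D3:**
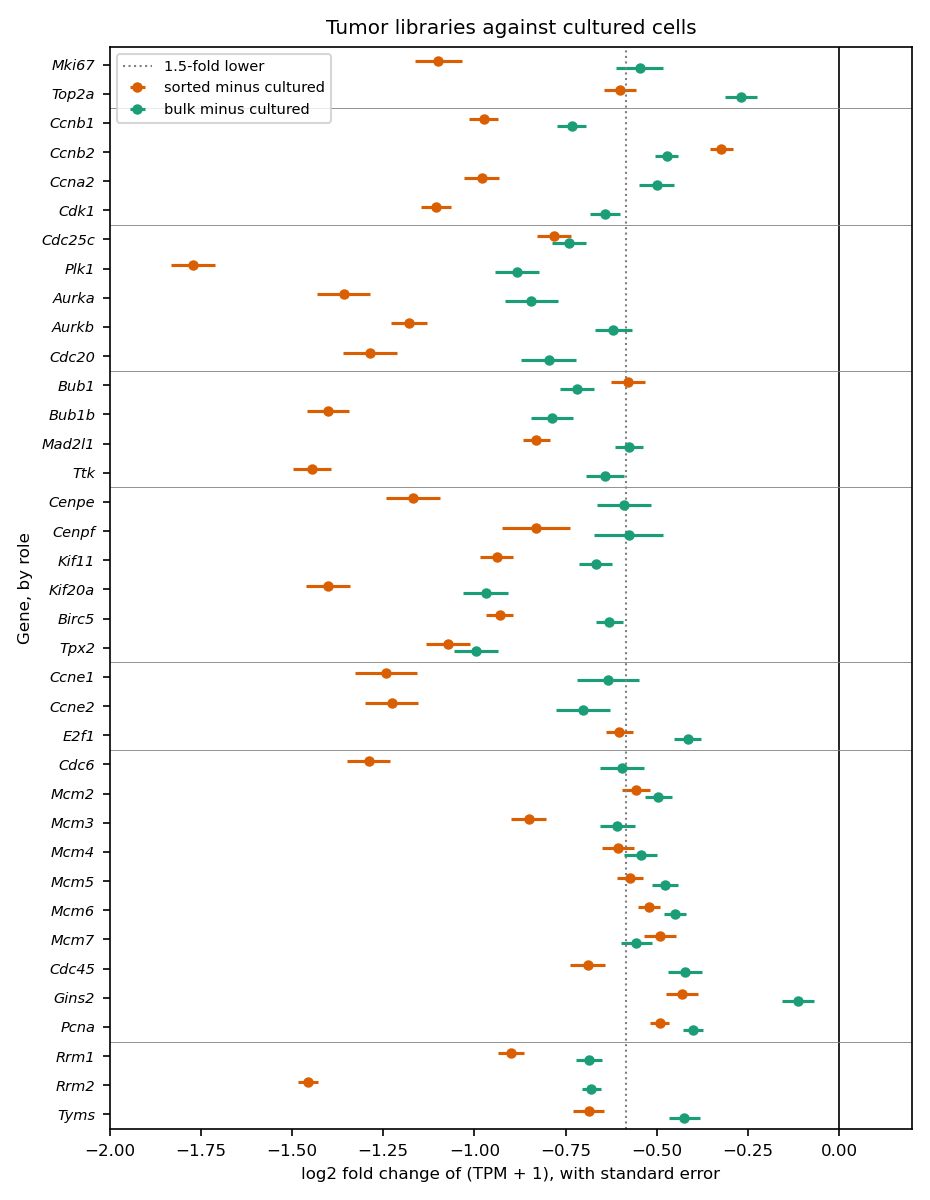
Log2 fold change of each of the 37 genes (rows, grouped by role) in sorted cells and in bulk tumors against cultured cells, with standard errors from limma and a dotted line at 1.5-fold lower. All points lie below 0, and the gap between the sample types is widest for Plk1, Ttk, Rrm2 and Cdc6.

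Other genes of the same pathways were read against the 37. Like the 37, they were listed with earlier results of these data known, so they are not an independent check. Of 24 further G2/M genes, 17 were lower in sorted than in cultured cells and none was higher (median log2 -0.90), with Kif23 (-1.33) and Hmmr (-1.27) the lowest. By the same rule 8.99% of all genes tested were lower. Of 22 further S phase genes, 16 were lower and none was higher (median -0.71), with Chaf1a, a histone chaperone of replication, at -1.44 and Fen1, a flap nuclease, at -1.21. Of the 10 genes of pocket proteins and E2F factors, 3 were lower (E2f2, Rbl1 and E2f8). Of 6 D cyclins and G1 kinases, Ccnd3 was lower (-1.77, SE 0.08), at 203 and 203 TPM in cultured controls and 55.0 and 58.1 TPM in sorted controls. Among 7 inhibitors of cyclin-dependent kinases, 4 passed the filter. Cdkn1b, encoding p27, was higher in sorted cells (log2 1.10, SE 0.06), at 64.9 and 60.7 TPM in cultured controls and 123 and 123 TPM in sorted controls, while Cdkn2d and Cdkn2c were lower (-1.34 and -0.76). Cdkn2a and Cdkn2b were listed at 0 in all 12 cultured and sorted libraries.

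Each guide was compared with control within a sample type, to ask whether the cells edited at Nr2f6 differed in these genes. With sg495 none of the 37 was called in any sample type. The background was 0.0293% of genes in bulk tumors, 0.899% in sorted cells and 2.77% in cultured cells. The medians were -0.01 in bulk tumors, -0.23 in sorted cells and -0.04 in cultured cells, against 0.06, -0.04 and -0.001 for all genes. At an unadjusted p below 0.05 there were 3, 20 and 7 of the 37 respectively, against 15.7%, 15.6% and 27.8% of all genes, so that the counts in bulk tumors and cultured cells were below the share of all genes.

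In sorted cells, 32 of 37 genes had a negative difference with sg495, against 56.7% of all genes, and for 29 both sg495 libraries lay below both controls, as for 31.5% of all genes. This lean was not particular to sg495. In the sorted libraries labelled sg492, 28 of 37 were negative, against 49.1% of all genes. For 15 genes both of those libraries lay below both controls, as for 20.0% of all genes. Rrm2 was at 287 and 280.2 TPM in controls and at 210 and 221 TPM with sg495, a log2 difference of -0.40 (SE 0.07, adjusted p = 0.0719). Pcna was at 470.4 and 473 TPM in controls and 400.2 and 395 TPM with sg495 (log2 -0.25, SE 0.06, adjusted p = 0.163). Cdk1 was at 202 and 215 TPM in controls and 164 and 180.1 TPM with sg495 (log2 -0.28, 95% interval -0.51 to -0.04, adjusted p = 0.253). These differences run one way, but none passed the adjusted threshold with 2 libraries a group. One sg495 library had the highest level of stress genes of the sorted libraries, at 2053 TPM, and the other the highest mitochondrial share, at 8.02% of TPM, and their part was not tested.

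In cultured cells the same guide gave 6 genes with an adjusted p below 0.05 and a difference below 1.5-fold, all lower, against 7.5% of all genes. These were Mcm5 (log2 -0.34, adjusted p = 0.00654), Top2a (-0.23, 0.0141), Ccnb2 (-0.23, 0.0145), Gins2 (-0.39, 0.0237), Bub1 (-0.25, 0.0445) and Aurkb (-0.20, 0.0446). Top2a was at 373 and 379 TPM in controls and 314 and 327 TPM with sg495. Among the other genes, Ccnb1 was at -0.02 (95% interval -0.10 to 0.07) and Rrm2 at 0.01 (-0.07 to 0.08). The largest rise was that of Cdc6 (0.18). For 14 of the 37 both sg495 libraries lay below both controls, as for 28.9% of all genes. For 7 both lay above, as for 27.5% of all genes: Cdc20, Aurka, Cenpe, Kif20a, Mcm2, Mcm4 and Cdc6. Ki-67 (Mki67) was at 128 and 119 TPM in controls and 111 and 118 TPM with sg495 (-0.11, 95% interval -0.24 to 0.03).

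Chromosome 8 holds Nr2f6 and 2 of the 37, Mcm5 and Gins2, and these had the largest sg495 differences of the 37 in sorted and in cultured cells. In bulk tumors the largest was that of Gins2, followed by Cenpf at 0.47 (adjusted p = 0.138) and Ccne2 at -0.31, with Mcm5 at -0.23. Mcm5 was at 155 and 155 TPM in cultured controls and 119 and 126 TPM with sg495, and at 111 and 106 TPM in sorted controls against 74.2 and 80.4 TPM (log2 -0.49, SE 0.08, adjusted p = 0.056). Gins2 was at 47.1 and 52.5 TPM in cultured controls and 36.4 and 39.1 TPM with sg495, and at 37.2 and 34.6 TPM in sorted controls against 24.8 and 26.2 TPM. In bulk tumors Gins2 was at 55.8 and 52.6 TPM in controls and 38.0 and 35.1 TPM with sg495 (log2 -0.56, SE 0.08, adjusted p = 0.0865). The median of all chromosome 8 genes with sg495 was -0.25 in bulk tumors (717 genes), -0.34 in sorted cells (684 genes) and -0.33 in cultured cells (645 genes), and it was 0.02 to 0.03 with sg492. Cdt1, a licensing factor of the further S phase list and also on chromosome 8, was lower with sg495 in sorted cells (log2 -0.69, adjusted p = 0.0182), at 71.6 and 73.2 TPM in controls and 43.6 and 45.1 TPM with sg495. Rbl2, of the list of pocket proteins and on the same chromosome, was lower with sg495 in cultured cells (log2 -0.65, SE 0.08, adjusted p = 0.00713). Without the 2 chromosome 8 genes the median of the other 35 was -0.01 in bulk tumors, -0.23 in sorted cells and -0.03 in cultured cells. The part of the chromosome in the values of Mcm5, Gins2, Cdt1 and Rbl2 was not tested.

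**Figure D4:**
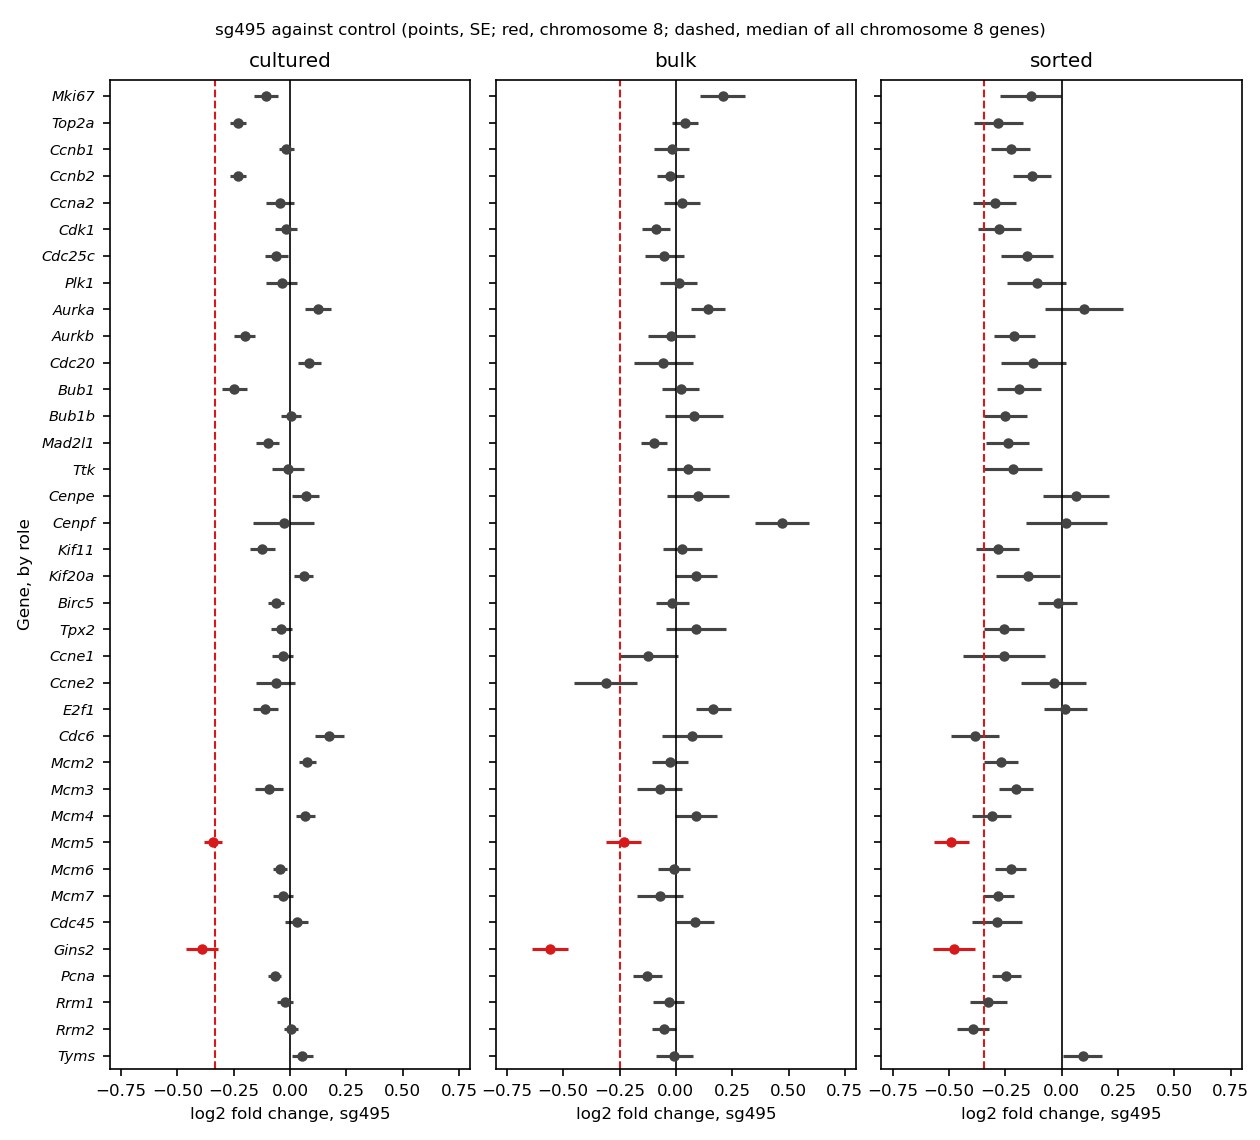
Log2 fold change with sg495 against control (horizontal axis, standard errors from limma) for each of the 37 genes in cultured cells, bulk tumors and sorted cells, with the chromosome 8 genes Mcm5 and Gins2 in red and a dashed line at the median of all chromosome 8 genes. Most sorted cell points lie below 0, while points in bulk tumors and cultured cells lie on both sides.

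With sg492 none of the 37 was called in bulk tumors, sorted cells or cultured cells (background 0.0%, 0.0388% and 0.05% of genes), and 1, 3 and 5 of the 37 had an unadjusted p below 0.05, against 8.3%, 7.13% and 10.5% of all genes. The medians were -0.03, -0.08 and 0.03. In cultured cells all 16 G1/S and S phase genes had a positive difference, of 0.01 to 0.16, against a median of 0.03 for all genes. Of all genes there 39.1% were negative, and of the 21 G2/M genes 11 were positive and 10 negative. The other sample types went the other way. Of the same 16 genes 15 were negative in bulk tumors, against 34.2% of all genes. In sorted cells 11 of the 16 were negative, against 49.1% of all genes. Gins2 in bulk tumors was at 37.1 and 38.8 TPM with sg492, close to its sg495 level and below the controls (log2 -0.50, SE 0.08, adjusted p = 0.481). Rrm2 in the sorted libraries labelled sg492 was at 219 and 231 TPM against 287 and 280.2 TPM in controls (log2 -0.33, SE 0.07, adjusted p = 0.545). For Cdk1 the 95% interval with sg492 was -0.28 to 0.02 in bulk tumors, -0.33 to 0.14 in sorted cells and -0.06 to 0.17 in cultured cells.

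The difference of the sg495 effect between sample types was tested directly. Between sorted and cultured cells none of the 37 was called by the full rule (background 2.51%), and at an adjusted p alone 1 was lower, Rrm2, against 1.86% of all genes. Its sg495 effect was lower in sorted than in cultured cells by -0.40 on the log2 scale (SE 0.06, adjusted p = 0.0067). In cultured cells Rrm2 was at 653 and 655 TPM in controls and 668 and 646 TPM with sg495, so its levels overlapped there. Between bulk tumors and cultured cells, and between bulk tumors and sorted cells, none was called (background 1.76% and 0.122%), with medians of 0.03 and 0.21. At an unadjusted p below 0.05 the sorted minus cultured, bulk minus cultured and bulk minus sorted comparisons had 12, 4 and 14 of the 37, against 18.7%, 15.3% and 16.0% of all genes. Of the D cyclins, Ccnd1 was higher with sg495 in cultured cells (log2 0.93, SE 0.04, adjusted p = 0.000729), at 65.7 and 65.1 TPM in controls and 127 and 125 TPM with sg495. In sorted cells Ccnd1 was at 70.1 and 57.2 TPM in controls and 66.2 and 57.2 TPM with sg495.

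Anti-PD1 was then compared with IgG in a separate fit, to ask whether the treatment moved these genes. Their levels were the lowest of the series, and for 36 of 37 genes both IgG libraries lay below every library of the 3 sample types, as did the 3 anti-PD1 libraries for 36 genes. Of the 13152 genes tested between sample types, 42.1% and 39.3% did so. Mki67 was at 36.6 and 23.6 TPM with IgG and at 43.4, 34.0 and 35.1 TPM with anti-PD1. Rrm2 was at 66.6 and 41.3 TPM with IgG and at 98.8, 107 and 78.8 TPM with anti-PD1. Ccna2 was at 39.6 and 11.3 TPM with IgG and at 50.5, 44.1 and 43.9 TPM with anti-PD1.

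None of the 37 was called between anti-PD1 and IgG, nor was any gene of the 13418 tested (background 0.0%). At an unadjusted p below 0.05 there were 2 of the 37, Rrm2 and Tpx2, and 964 of all genes (7.18%). The median log2 difference was 0.33, with 35 of 37 positive, against -0.04 for all genes. For 7 genes both IgG libraries lay below the 3 anti-PD1 libraries, as for 9.57% of all genes: Ccna2, Kif11, Tpx2, Ccne1, Mcm4, Mcm6 and Rrm2. The 95% interval was 0.19 to 1.47 for Rrm2 (adjusted p = 0.608) and -0.24 to 1.41 for Ccnb1, which for Ccnb1 holds both 0 and a rise of more than 2-fold. IgG replicate 2 was the lowest of the 5 libraries for 27 of 37 genes, against 37.2% of all genes, and its melanocyte markers summed to 1700 TPM against 3408 to 5194 TPM in the other 4 libraries. Without it the median difference was 0.04, and without IgG replicate 1 it was 0.62.

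**Figure D5:**
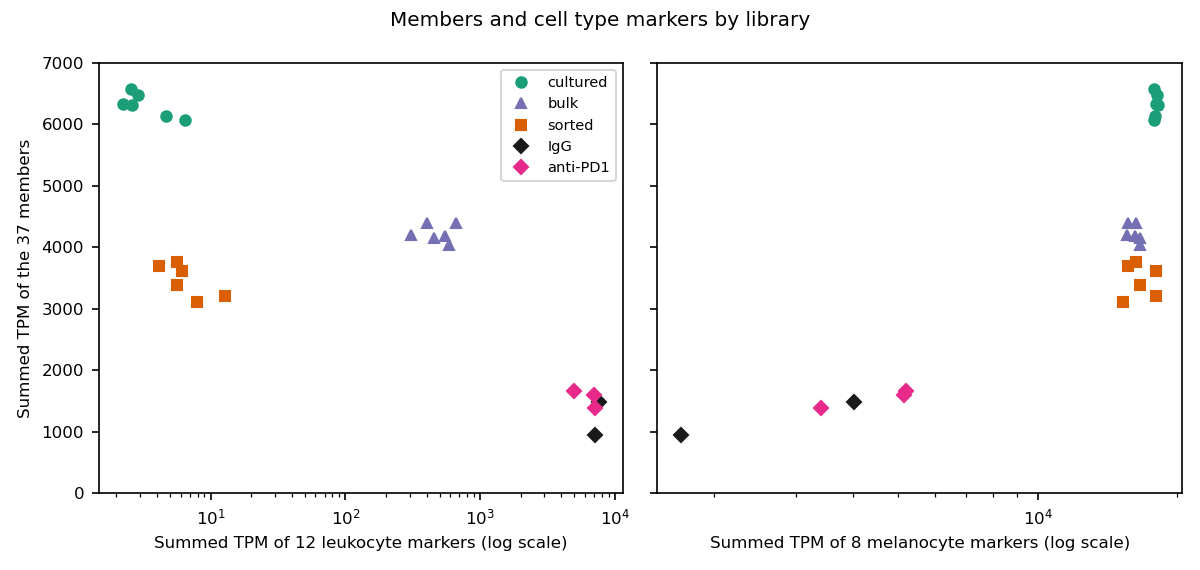
Summed TPM of the 37 genes (vertical axis) in each of the 23 libraries against the summed TPM of 12 leukocyte markers (left) and of 8 melanocyte markers (right), with log scales on the horizontal axes. The IgG and anti-PD1 libraries have the lowest sums of the 37 (947 to 1659 TPM), the highest leukocyte sums and the lowest melanocyte sums.

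Set against the melanocyte markers of the same library, the sum of the 37 was 34.0% to 36.9% in cultured cells, 24.3% to 28.1% in bulk tumors and 17.9% to 23.6% in sorted cells, which is the order seen in TPM. In the IgG libraries it was 36.9% and 55.7% and in the anti-PD1 libraries 31.1% to 40.9%. The order of these 5 libraries against the others therefore depended on the scale used.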

How the data were processed

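Reads were trimmed with Cutadapt 2.3, aligned to mm10 with STAR 2.7.0d and quantified with RSEM 1.3.1, per the labels, and the authors deposited 1 table of TPM for 47643 genes in 23 libraries. TPM sum to the same total in each library, so a gene can be lower because others are higher, and read depth is not kept. Here log2(TPM + 1) was tested with limma 3.58.1 in R 4.3.3 (1 mean per group, trend, 2-sided, Benjamini-Hochberg adjustment). Genes needed a mean of 1 TPM. A gene was called where the adjusted p was below 0.05 and the change reached 1.5-fold. The 18 libraries of the 3 sample types shared a fit for comparisons between types, each type had its own for the guides, and the IgG and anti-PD1 libraries had their own. The study's DESeq2 test needs counts and was not repeated. The script was tested on simulated data.

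All 37 members are named. From the other lists any D cyclin, G1 kinase or inhibitor may be named, and otherwise called genes, at most 4 a list and comparison. Members and lists were chosen with earlier results of these data known. Alternatives covered the pseudocount, filter, scaling, replicate block, fold rule, control libraries alone and leaving out each library. Gene positions are those of GENCODE M21 on GRCm38.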

Additional observations from a re-analysis of the deposited data

Results flagged for a closer look

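The response to sg495 was unequal among sample types, by the interaction test of limma at an adjusted p below 0.05, for 1 of the 37 genes and for 5 genes of the other cell cycle lists. Those lists had 24 G2/M, 22 S phase, 10 pocket protein and E2F, 6 G1 cyclin and kinase and 4 inhibitor genes tested. The share of all genes in either direction is not given here, so the count of 5 has no background to be read against. For Rrm2 the effect in sorted cells minus that in cultured cells was -0.401 (SE 0.0649, adjusted p = 0.0067), and it was below 1.5-fold. In that comparison 1.86% of all genes were lower at an adjusted p below 0.05, so 1 of 37 is near the share of all genes.

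For Ccnd1, cyclin D1, it was -0.973 between sorted and cultured cells (SE 0.156, adjusted p = 0.00656) and -0.83 between bulk tumors and cultured cells (SE 0.156, adjusted p = 0.0227). For Cdc25a, the phosphatase that activates Cdk2, it was -0.599 (SE 0.113, adjusted p = 0.0133), with 48.5 and 46.4 TPM in cultured controls, 59.3 and 62.5 TPM in cultured sg495, 31.3 and 32.8 TPM in sorted controls and 28.9 and 25.0 TPM in sorted sg495. For Ect2, a cytokinesis factor, it was -0.529 (adjusted p = 0.00825), and for Cdkn2d, a kinase inhibitor, 0.464 (adjusted p = 0.0455), both between sorted and cultured cells. Ect2 was at 85.7 TPM in the higher cultured sg495 library and at 48.2 and 48.8 TPM in sorted sg495 against 71.2 and 65.2 TPM in sorted controls. For Nusap1, a spindle protein, it was 0.328 between bulk tumors and cultured cells (adjusted p = 0.0477), with 68.7 and 66.9 TPM in cultured controls and 53.6 and 55.2 TPM with sg495. Ect2, Nusap1 and Cdc25a were named after their values were seen. Groups of 2 or 3 libraries are too small for a test of single outlying libraries.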

How the results depend on the processing

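Over all alternatives for the 37 genes, 217 counts of calls stayed within their limits, 5 rose and 1 fell, and 198 medians stayed, 9 moved and 3 reversed. The fold rule had the largest effect: without it bulk tumors against sorted cells gave 31 genes, bulk against cultured 37, sg495 in cultured cells 6 and the sorted minus cultured sg495 effect 1 (Rrm2). A pseudocount of 0.1 also gave 1 call for the last. That setting kept the 1.5-fold rule, which Rrm2 did not reach in the main fit, so the 2 calls need not be the same gene. Control libraries alone gave 3 calls for bulk against sorted and a median of -0.806 for sorted against cultured cells. Scaling by the median of ratios moved the sg495 median to -0.089 in bulk tumors, the sg492 median to 0.00167 in cultured cells, and the bulk minus sorted and bulk minus cultured sg495 effects to 0.128 and -0.0319, the last reversed. The cause was not tested. Leaving out 1 library at a time gave medians of -0.0811 to 0.0777 for sg495 in bulk tumors (reversed without sg495 replicate 1), -0.142 to -0.0138 for sg492 in sorted cells (lowest without sg492 replicate 2, highest without replicate 1), and -0.0482 to 0.11 and 0.14 to 0.298 for the bulk minus cultured and bulk minus sorted sg495 effects (lowest without bulk sg495 replicate 2, highest without replicate 1). It gave 28 to 30 calls for sorted against cultured cells and 4 to 9 for bulk against sorted cells, and 17 to 23 for bulk against cultured cells. For anti-PD1 the range of medians was 0.0425 (without IgG replicate 2) to 0.62 (without IgG replicate 1).

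No pairing by replicate number was seen: over 36 pairs of groups the correlation of same-numbered deviations was -0.137 to 0.0661. With 2 libraries in each of these groups, this cannot exclude that same-numbered libraries shared a source. With the replicate block 29, 6 and 21 genes were called between sample types and none in the other comparisons, the same counts as without it, and the anti-PD1 median was 0.382. Depth per library is not kept in TPM, and groups of 2 libraries limit the precision to the intervals given above.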
